A study of Mus musculus with 3 samples.

Results

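The insulin-like growth factor (IGF) family was examined in 3 mouse cultures. It was represented by 10 genes, chosen by name: the ligands Igf1 and Igf2, the receptors Igf1r and Igf2r, and the binding proteins Igfbp2, Igfbp3, Igfbp4, Igfbp5, Igfbp6 and Igfbp7. All 10 were found among the 47725 genes of the tables, and all 10 were among the 12875 measured genes, those averaging 1 FPKM or more across the cultures (FPKM are reads scaled by gene length and library total). The cultures came from mouse embryonic stem cells that were wild type (WT), mutant in Barhl1 (BM), or mutant in an E-box site named E3 (BEM). In each, otic progenitors were plated onto embryonic chicken utricle stromal cells that no longer divide, and were kept until culture day 9 in a medium with N2, B27, retinoic acid (1 µM) and EGF (25 ng/ml). The kind of mutation in BM, and whether each line is 1 clone, is not stated in the labels. Whether reads of the chicken cells were set apart is likewise not stated. Each line had 1 library, so no difference has a replicate check and none was tested.

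IGF1 and IGF2 are secreted growth factors that signal through IGF1R, a receptor tyrosine kinase closely related to the insulin receptor. IGF2R, the cation-independent mannose 6-phosphate receptor, carries lysosomal enzymes to lysosomes and takes up IGF2 for degradation without passing on a growth signal. Binding proteins hold the ligands outside the cell, where proteases release them. In the inner ear, IGF1 is known for its part in growth of the cochlea and survival of its neurons, and loss of IGF1 causes deafness in mice and people. N2 and B27 supply insulin, which at high dose can also act on IGF1R.

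The libraries held 21555823 (WT), 20111794 (BM) and 23813123 (BEM) reads. Barhl1, the targeted gene, was listed at 126.5 (WT), 95.1 (BM) and 0.0107 FPKM (BEM). The kind of mutation being unstated, its level in BM checks no label. Its values, and those of the hair cell gene Atoh1, did not come out as whole reads, unlike 12860 of the 12875 measured genes. BM and BEM lay close to each other over all genes, 0.784% of measured genes being at least 2-fold apart between them. With recovered reads, the 95% counting interval of their ratio excluded 1 for 10.7%. The labels call the samples hair cell-like cells, and of 10 hair cell markers 5 were measured. Atoh1, which starts hair cell differentiation, was listed at 270.2 (WT), 236.5 (BM) and 240.9 FPKM (BEM), while Pou4f3, Otof and Pvalb were below 0.03 FPKM in each library and Gfi1 and Lhx3 were also not measured. Myo7a stood at 0.704 (WT), 9.79 (BM) and 9.83 FPKM (BEM), Espn at 2.08 (WT), 0.565 (BM) and 0.503 FPKM (BEM) and Myo6 at 3.65 (WT), 2.04 (BM) and 2.15 FPKM (BEM). The mutant cultures also differed from WT in markers of other cell types, and cells of a type being fewer cannot be told apart from less RNA per cell in these bulk samples. Relative to WT, all 14 macrophage genes were at least 2-fold higher in BM and in BEM, as were 7 of 13 mesenchyme and 7 of 9 smooth muscle genes, while 1 smooth muscle gene was lower. Of the other lists, proliferation genes were higher for 7 of 12 in BM and 8 of 12 in BEM with 0 lower in either, and neuron genes were higher for 3 and lower for 1 of 5 in each. Lower genes made up 4 of 5 adipocyte, 3 of 4 epithelium, 3 of 3 liver and endoderm and 1 of 2 endothelium genes in each mutant, with 0 higher. All 11 liver and endoderm genes were under 1 FPKM in both mutants, so those measured passed through WT and could not have counted as higher. In turn, 12 of the 14 macrophage and 3 of the 9 smooth muscle genes were under 1 FPKM in WT and could not have counted as lower. Of the 5 measured hair cell genes Myo7a was higher and Espn lower in each, and the other lower gene in BEM was Barhl1 itself. Beside these counts, 10.5% of all measured genes were at least 2-fold higher in BM and 10.7% in BEM, and 15.3% were lower in each.

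Most of the family differed between WT and the mutant cultures, in both directions, and lay at nearly the same level in BM and BEM. Igf2, Igfbp2, Igfbp4 and Igfbp5 were lower in both mutants, and Igf1 and Igfbp7 were higher. A gene was counted when it was at least 2-fold apart on the log2(FPKM + 0.5) scale, which 2 of the 10 family genes were upward and 4 downward in BM. Among all measured genes, the share past this threshold in BM was 10.5% upward, 15.3% downward and 25.8% in either direction. In BEM the counts were again 2 higher and 4 lower, against 10.7% upward, 15.3% downward and 25.9% in either direction. The median log2 ratio of the 10 genes was -0.80 in BM and -0.78 in BEM, beside -0.08 and -0.07 over all measured genes. Both comparisons use the same WT library, so they are not independent of each other.

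**Figure D1:**
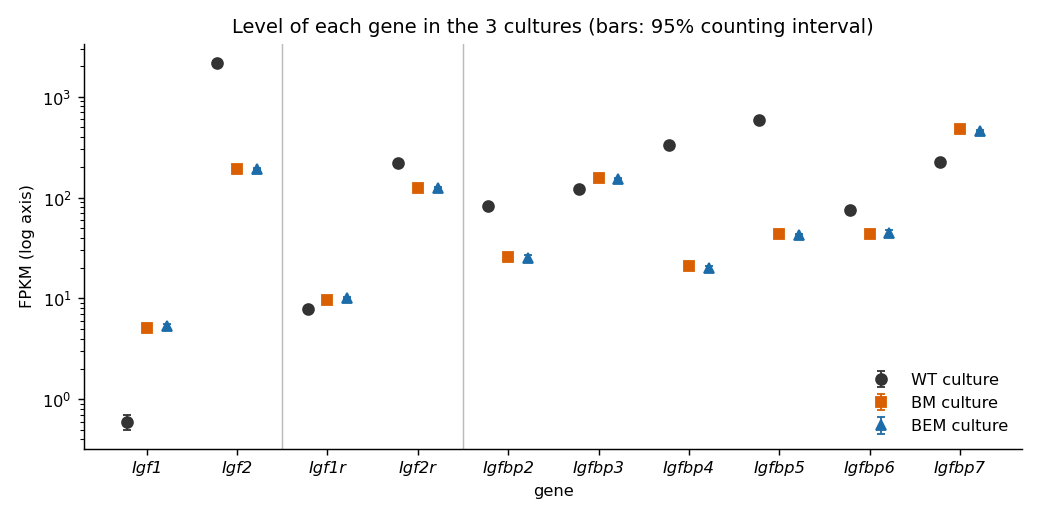
FPKM (log axis) of the 10 genes in the WT, BM and BEM libraries, 1 point per library, with bars for the 95% counting interval. Vertical lines separate ligands, receptors and binding proteins. WT stands above both mutants for Igf2, Igfbp2, Igfbp4 and Igfbp5 and below them for Igf1 and Igfbp7, while the BM and BEM points lie side by side throughout.

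Of the ligands, Igf2 (ENSMUSG00000048583, chromosome 7, 142650766 to 142666816, minus strand, GRCm38), the main IGF of the fetus, was the most abundant family member in WT. Its level was 2181 (WT), 194 (BM) and 194 FPKM (BEM). It was therefore 11.3-fold lower in BM (95% counting interval 11.1 to 11.4) and 11.2-fold lower in BEM (11.1 to 11.4). Intervals here and below come from the recovered reads and cover counting error only. With 269117 reads, Igf2 took 1.25% of all WT reads and ranked 6 among the measured genes, against rank 219 in BM and 222 in BEM. The authors' deposited table listed Igf2 with an FDR of 0.0147 in each mutant, a value reached from 1 library per line by a route that the labels do not state.

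Igf1 (ENSMUSG00000020053, chromosome 10, 87858265 to 87937042, plus strand), the ligand that dominates after birth, went the other way. It stood at 0.590 (WT), 5.07 (BM) and 5.28 FPKM (BEM), from 126, 1010 and 1245 reads. The level was 8.59-fold higher in BM (7.13 to 10.4) and 8.94-fold higher in BEM (7.44 to 10.8). Igf1 passed the minimum through its mutant levels, since WT alone lay below 1 FPKM. Igf2 nevertheless remained the more abundant ligand in every library, by 3696-fold in WT, 38.2-fold in BM and 36.8-fold in BEM in FPKM.

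Macrophages and mesenchymal cells are known sources of IGF1, and the summed levels of both lists were higher where Igf1 was higher. The summed level of the 14 macrophage genes was 12.9 (WT), 2016 (BM) and 2065 FPKM (BEM), with 12 of them under 1 FPKM and C1qa at 0 in WT. The summed level of the 13 mesenchyme genes was 2811 (WT), 6298 (BM) and 6172 FPKM (BEM). Of these 13 genes 7 were at least 2-fold higher in each mutant and 0 lower, but Pdgfra, Col3a1, Dcn and Fbln1 lay below WT by less than 2-fold, Pdgfra at 51.0 (WT), 25.9 (BM) and 26.02 FPKM (BEM). Fetal liver and endoderm are known for high Igf2, and the 11 liver and endoderm genes summed to 32.5 (WT), 0.192 (BM) and 0.231 FPKM (BEM), with Alb at 0 and Afp at 0.0138 FPKM in WT. Of these 11 genes 3 were measured, and Fgb (15.7 FPKM) and Foxa1 (12.6 FPKM) made up most of the WT sum. The mesenchyme sum, in turn, was higher where Igf2 was lower. The part of these cell types in the ligand differences was not tested.

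The receptors differed less than the ligands. Igf1r (ENSMUSG00000005533, chromosome 7, 67952827 to 68233668, plus strand), which passes on the signal of both ligands, stood at 7.85 (WT), 9.75 (BM) and 10.1 FPKM (BEM). It was 1.24-fold higher in BM (1.18 to 1.31) and 1.29-fold higher in BEM (1.23 to 1.35), short of 2-fold. Igf2r (ENSMUSG00000023830, chromosome 17, 12682406 to 12769664, minus strand), which clears IGF2, stood at 221.7 (WT), 124.6 (BM) and 125.2 FPKM (BEM). It was 1.78-fold lower in BM (1.75 to 1.81) and 1.77-fold lower in BEM (1.74 to 1.80), also short of 2-fold. Whole reads of Igf2r were found at a length other than the annotated one and are less certain, as are those of H19, Airn, Plat, Sesn1 and Wisp1 below and their intervals. The level of Igf2r exceeded that of Igf1r by 28.2-fold in WT, 12.8-fold in BM and 12.4-fold in BEM.

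Among the binding proteins, Igfbp4, Igfbp5 and Igfbp2 were lower in the mutants. Igfbp4 (ENSMUSG00000017493, chromosome 11, 99041244 to 99054392, plus strand), a binding protein known mainly to restrain IGF action, had the lowest ratio of the family. It stood at 329.8 (WT), 21.1 (BM) and 20.1 FPKM (BEM), which was 15.6-fold lower in BM (14.9 to 16.4) and 16.4-fold lower in BEM (15.7 to 17.2). Igfbp5 (ENSMUSG00000026185, chromosome 1, 72857932 to 72874884, minus strand), the most conserved binding protein and one that also adheres to matrix, was second to Igf2 in WT. It stood at 592 (WT), 43.1 (BM) and 42.9 FPKM (BEM), 13.7-fold (13.4 to 14.1) and 13.8-fold lower (13.4 to 14.2). Igfbp2 (ENSMUSG00000039323, chromosome 1, 72824503 to 72852474, plus strand), abundant in fetal tissue, is the neighbour of Igfbp5 on chromosome 1 and stood at 82.9 (WT), 25.7 (BM) and 25.3 FPKM (BEM). It was 3.22-fold (2.998 to 3.47) and 3.28-fold lower (3.06 to 3.51). In the authors' deposited table the FDR for BM against WT was 0.00495 for Igfbp4 and 0.00757 for Igfbp5 but 0.493 for Igfbp2.

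Igfbp7 (ENSMUSG00000036256, chromosome 5, 77349240 to 77408041, minus strand), which binds IGFs only weakly and is found in basement membranes of vessels, was higher in the mutants. It stood at 227 (WT), 479.9 (BM) and 458.9 FPKM (BEM), 2.11-fold higher in BM (2.04 to 2.18) and 2.02-fold higher in BEM (1.96 to 2.08). The BEM value lies so close to 2-fold that its counting interval reaches below it, and the authors' deposited table gave an FDR of 0.706 for BM and 0.741 for BEM. Igfbp3 (ENSMUSG00000020427, chromosome 11, 7206086 to 7213923, minus strand), the main IGF carrier of blood, stood at 122 (WT), 154.8 (BM) and 153.7 FPKM (BEM). It was 1.27-fold (1.23 to 1.31) and 1.26-fold higher (1.22 to 1.30). Igfbp6 (ENSMUSG00000023046, chromosome 15, 102144362 to 102149511, plus strand), which prefers IGF2 over IGF1, stood at 75.01 (WT), 43.9 (BM) and 45.0 FPKM (BEM), 1.71-fold (1.58 to 1.85) and 1.67-fold lower (1.55 to 1.79). Neither Igfbp3 nor Igfbp6 reached 2-fold. Binding proteins are expressed by many cell types. Beside them, the 9 smooth muscle genes summed to 143 (WT), 4074 (BM) and 4120 FPKM (BEM), the 8 endothelium genes to 5.72 (WT), 3.14 (BM) and 3.17 FPKM (BEM) and the 8 adipocyte genes to 179 (WT), 26.4 (BM) and 26.1 FPKM (BEM). The 7 epithelium genes summed to 39.6 (WT), 8.12 (BM) and 8.33 FPKM (BEM). Their part in the binding protein differences was not tested.

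**Figure D2:**
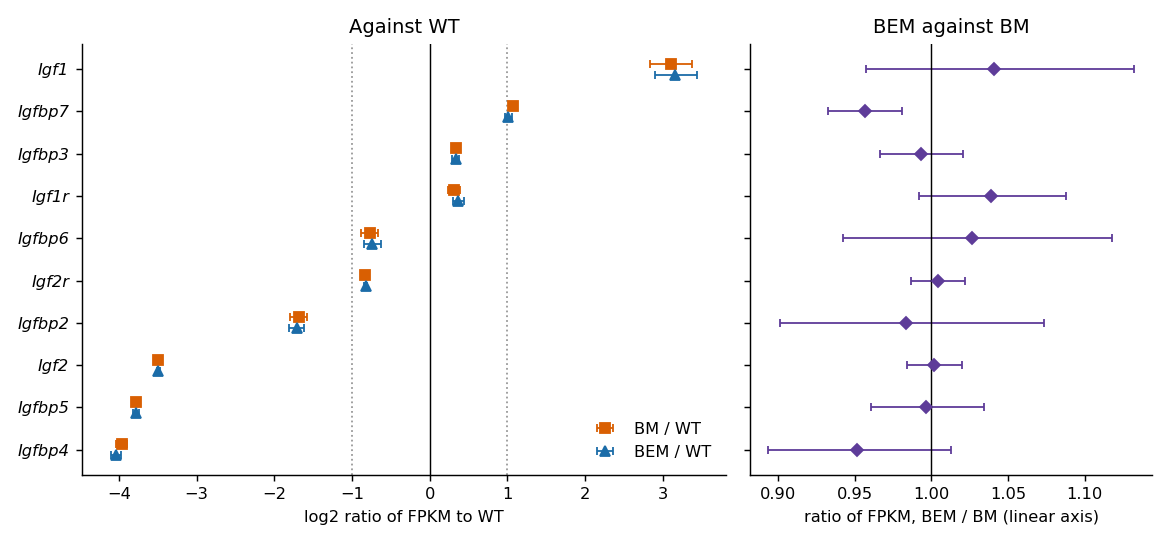
Left, log2 ratio of FPKM to WT for BM and BEM, with 95% counting intervals and dotted lines at 2-fold. Right, ratio of FPKM of BEM to BM on a linear axis. Against WT the genes spread from 15.6-fold lower (Igfbp4) to 8.59-fold higher (Igf1) in BM, whereas all 10 ratios of BEM to BM lie between 0.951 and 1.04.

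Both the sum and the makeup of the binding protein transcripts differed between WT and the mutants. Summed over the 6 binding protein genes, the level was 1429 (WT), 768 (BM) and 746 FPKM (BEM). Igfbp4 and Igfbp5 together made up 64.5% of that sum in WT, 8.36% in BM and 8.45% in BEM. Igfbp7 made up 15.9% in WT, 62.4% in BM and 61.5% in BEM. The share of Igfbp3 was 8.54% in WT, 20.1% in BM and 20.6% in BEM, and that of Igfbp6 was close to level at 5.25%, 5.71% and 6.03%. Ligand transcripts (Igf1 plus Igf2) exceeded the binding protein sum 1.53-fold in WT, and came to 0.259 and 0.267 of it in BM and BEM. That sum includes Igfbp7, which binds IGFs only weakly and made up most of it in the mutants, so these ratios do not measure binding capacity.

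**Figure D3:**
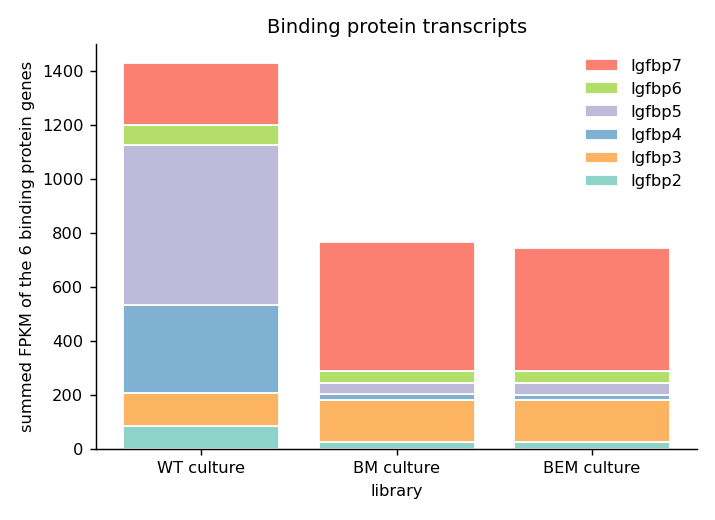
FPKM of the 6 binding protein genes stacked for each library, from Igfbp2 at the base to Igfbp7 at the top. The WT bar reaches 1429 FPKM and is mostly Igfbp5 and Igfbp4, while the BM and BEM bars reach 768 and 746 FPKM and are mostly Igfbp7.

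Promoter letters are shown for Igfbp4, Igfbp5 and Igfbp7, which are the binding proteins with the largest shares of the summed level in WT or in the mutants and have 1 start each in RefSeq. Igf2 has 4 starts there, and gene-level values do not say which were used, so none is printed. Each sequence is the 250 bases before the RefSeq start in GRCm38.p6, read 5′ to 3′ on the gene's strand: chr11:99040994-99041243 for Igfbp4 (plus), chr1:72874866-72875115 for Igfbp5 (minus) and chr5:77408046-77408295 for Igfbp7 (minus). Capitals mark a TATA box (TATAAA) or a GC box (GGGCGG), searched on both strands.
Igfbp4: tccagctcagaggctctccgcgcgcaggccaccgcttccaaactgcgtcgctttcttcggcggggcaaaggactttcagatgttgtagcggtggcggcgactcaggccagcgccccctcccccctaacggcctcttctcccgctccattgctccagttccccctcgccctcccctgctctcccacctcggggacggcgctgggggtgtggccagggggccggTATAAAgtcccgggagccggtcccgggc
Igfbp5: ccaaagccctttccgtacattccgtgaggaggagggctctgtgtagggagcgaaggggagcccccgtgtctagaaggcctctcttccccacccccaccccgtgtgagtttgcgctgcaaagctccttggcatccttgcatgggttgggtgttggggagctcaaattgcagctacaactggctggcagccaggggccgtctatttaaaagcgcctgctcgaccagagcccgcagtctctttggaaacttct
Igfbp7: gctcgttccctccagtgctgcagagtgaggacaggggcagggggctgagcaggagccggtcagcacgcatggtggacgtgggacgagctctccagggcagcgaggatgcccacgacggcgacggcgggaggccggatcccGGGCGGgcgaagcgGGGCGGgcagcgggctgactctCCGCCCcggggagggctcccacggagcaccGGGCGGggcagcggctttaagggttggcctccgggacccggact
The Igfbp4 window held a TATA box that began 28 bases before the start, which 12.4% of all 32851 windows of this length held somewhere. The Igfbp7 window held 4 GC boxes and no TATA box, and 32.7% of all windows held at least 1 GC box. The Igfbp5 window held neither. GC content was 69.2% for Igfbp4, 58.8% for Igfbp5 and 74.0% for Igfbp7, beside a median of 52.4% over all windows. Over the 14 windows of the 10 genes, an E-box (CANNTG) was in 9, a GC box in 6, CCAAT in 3, an AP-1 site (TGANTCA) in 2, a TATA box in 2 and a FoxO site (GTAAACA) in 0. The shares over all windows were 66.2% for CANNTG, 33.8% for CCAAT, 6.75% for TGANTCA and 3.17% for GTAAACA. These matches describe letters and are no evidence of binding or use.

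The order of levels within the family differed as well. In WT it ran Igf2, Igfbp5, Igfbp4, Igfbp7, Igf2r, Igfbp3, Igfbp2, Igfbp6, Igf1r, Igf1, with the counting intervals of Igfbp7 and Igf2r overlapping. In both mutants it ran Igfbp7, Igf2, Igfbp3, Igf2r, Igfbp6, Igfbp5, Igfbp2, Igfbp4, Igf1r, Igf1, with the intervals of Igfbp6 and Igfbp5 overlapping. Igf1r and Igf1 held the last places in all 3 libraries.

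BEM and BM hardly differed in this family. The count of genes at least 2-fold apart was 0 of 10, against 0.784% of all measured genes (0.458% higher and 0.326% lower in BEM). The 10 ratios of BEM to BM ran from 0.951 for Igfbp4 to 1.04 for Igf1. A ratio of 1 lay outside the counting interval of 1 gene of the 10, Igfbp7 at 0.956 (0.933 to 0.981), a share near the 10.7% of measured genes with recovered reads that did so. For Igf2 the interval was 0.984 to 1.02 and for Igfbp5 0.960 to 1.03, which is as finely as these depths resolve the difference. In the comparison of BM with WT the interval excluded 1 for all 10 genes, as it did for 80.3% of measured genes, and in BEM against WT also for all 10, beside 80.8%.

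Genes that free IGFs from binding proteins, with their inhibitors, differed in both directions. Of the 10 genes of that list, all measured, 5 were at least 2-fold higher and 3 lower in each mutant, with median log2 ratios of 0.78 in BM and 0.82 in BEM. Over all measured genes 10.5% (BM) and 10.7% (BEM) were higher, and 15.3% were lower in each. The paired proteases Pappa and Pappa2 differed in opposite directions. Pappa, a metalloprotease that cleaves IGFBP4, stood at 4.40 (WT), 43.9 (BM) and 45.9 FPKM (BEM), 9.98-fold (9.36 to 10.6) and 10.4-fold higher (9.79 to 11.1). Pappa2, which cleaves IGFBP3 and IGFBP5, stood at 30.5 (WT), 1.28 (BM) and 1.34 FPKM (BEM), 23.9-fold (21.1 to 27.1) and 22.8-fold lower (20.4 to 25.5). Pappa2 was thus 6.94-fold above Pappa in WT, and Pappa 34.3-fold and 34.2-fold above Pappa2 in BM and BEM. Stc2, an inhibitor of both proteases, stood at 6.66 (WT), 1.02 (BM) and 0.828 FPKM (BEM), 6.54-fold (5.33 to 8.09) and 8.05-fold lower (6.54 to 9.997). Plat, tissue plasminogen activator, was 3.25-fold (3.09 to 3.41) and 3.36-fold lower (3.21 to 3.53). Plau, the other plasminogen activator of the list, went the other way, at 15.0 (WT), 37.5 (BM) and 39.2 FPKM (BEM). Ctsd, Adamts1 and Htra3 were also higher, by 2.81-fold, 2.67-fold and 3.47-fold in BM and 2.81-fold, 2.62-fold and 3.68-fold in BEM.

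Signalling genes downstream of the receptors were mostly within 2-fold of WT. Of 22 measured genes of that list, 0 were higher and 2 lower in each mutant, with medians of 0.03 in BM and -0.02 in BEM. The shares among all measured genes were 10.5% (BM) and 10.7% (BEM) higher, and 15.3% lower in each. Irs2, an adaptor that links the insulin and IGF1 receptors to PI3 kinase, stood at 29.8 (WT), 4.27 (BM) and 4.08 FPKM (BEM), 6.99-fold (6.39 to 7.655) and 7.30-fold lower (6.71 to 7.96). Akt1, at 54.9, 103 and 103 FPKM, stayed inside the threshold. Rptor, a subunit of the mTORC1 complex, stood at 12.0, 5.84 and 5.80 FPKM, 2.05-fold (1.93 to 2.17) and 2.06-fold lower (1.95 to 2.18). On the log2(FPKM + 0.5) scale its ratios to WT of -0.97 in BM and -0.98 in BEM fell just short of the threshold. The related adaptor Irs1 stood at 6.89, 6.14 and 5.91 FPKM.

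Among 10 inhibitors of the pathway, 3 were higher and 1 lower in BM, and 2 higher and 1 lower in BEM. Over all measured genes 10.5% were higher and 15.3% lower in BM, and 10.7% and 15.3% in BEM. Grb10, an adaptor that restrains the insulin and IGF1 receptors, had 93 reads in WT, 17951 in BM and 21466 in BEM, and was 207-fold (169 to 256.5) and 209-fold higher (170.5 to 259). With 0.475 FPKM in WT, Grb10 passed the minimum through its mutant levels and could not have counted as lower. Its relative Grb14 stood at 1.07 (WT), 4.30 (BM) and 4.07 FPKM (BEM), 4.01-fold (3.37 to 4.79) and 3.80-fold higher (3.20 to 4.52). Socs3, a feedback inhibitor of cytokine and insulin signalling, was 3.55-fold (3.22 to 3.91) and 3.74-fold lower (3.41 to 4.10). The phosphatase gene Inpp5d, expressed in blood cells, stood at 2.42 (WT), 5.49 (BM) and 5.29 FPKM (BEM). On the log2(FPKM + 0.5) scale its ratio to WT was 1.03 in BM and 0.99 in BEM, on either side of the threshold.

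FoxO factors are held in the cytoplasm by insulin and IGF signalling and switch on growth arrest and metabolic genes when it is low. Of 12 FoxO genes and known targets, 0 were higher, and 6 were lower in BM and 7 in BEM, with medians of -1.17 and -1.18. Over all measured genes 15.3% were lower in each mutant, and 10.5% (BM) and 10.7% (BEM) higher. Txnip, an inhibitor of glucose uptake, stood at 300.7 (WT), 51.9 (BM) and 53.6 FPKM (BEM), 5.80-fold (5.59 to 6.02) and 5.61-fold lower (5.42 to 5.80). Gadd45a, a growth arrest and DNA damage gene, was 5.19-fold (4.75 to 5.69) and 4.91-fold lower (4.53 to 5.33). Klf15 was 9.81-fold (6.78 to 14.7) and 10.004-fold lower (7.08 to 14.5), and Sesn1, an inhibitor of mTORC1, was 3.38-fold (3.01 to 3.81) and 3.5-fold lower (3.13 to 3.92). At 0.552 (BM) and 0.542 FPKM (BEM), Klf15 passed the minimum through WT and could not have counted as higher. Proliferation genes differed from WT in the direction opposite to this list, their summed level being 74.3 (WT), 177 (BM) and 181 FPKM (BEM). Their part in the differences of this list was not tested.

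The CCN genes encode matrix proteins once grouped with the IGF binding proteins for a shared domain. Of 5 measured, 3 were higher and 0 lower in each mutant, with medians of 1.99 and 2.04. Across all measured genes 10.5% (BM) and 10.7% (BEM) were higher and 15.3% lower, with medians of -0.08 and -0.07. Wisp2 had 6 reads in WT, 1768 in BM and 2047 in BEM, 316-fold (145 to 862) and 309-fold higher (142 to 843). With 0.145 FPKM in WT, Wisp2 passed the minimum through its mutant levels and could not have counted as lower. Nov stood at 4.77 (WT), 84.1 (BM) and 87.6 FPKM (BEM), 17.6-fold (15.7 to 19.9) and 18.4-fold higher (16.3 to 20.7). Wisp1 was 4.01-fold (3.87 to 4.17) and 4.15-fold higher (4.01 to 4.31), while Ctgf, at 72.8, 122 and 122 FPKM, was short of 2-fold. The mesenchyme and smooth muscle sums given above moved with this list, and their part in it was not tested.

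**Figure D4:**
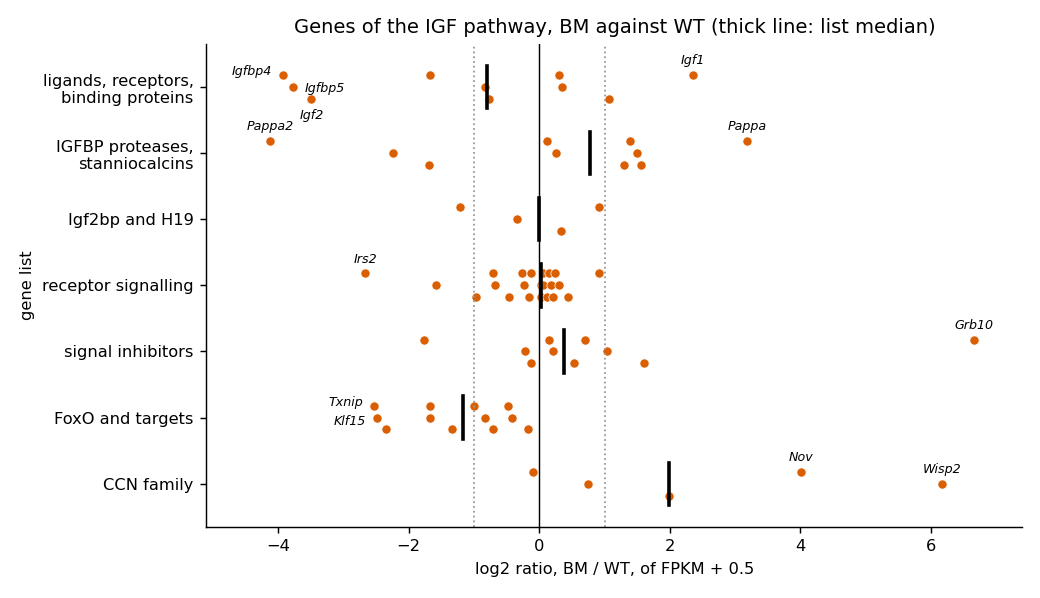
Log2 ratio of BM to WT, with 0.5 added to each FPKM, for every measured gene of 7 IGF lists, 1 point per gene, with dotted lines at 2-fold and a thick line at each list's median. The receptor signalling genes cluster around a median of 0.03, while Pappa and Pappa2 stand at opposite ends of their list and Grb10 and Wisp2 at the far right.

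Of 8 relatives of the family, 2 were measured. Igfbp1, Ins1 and Ins2, the latter being the genes of insulin in mice, had 0 reads in each library. The insulin receptor gene Insr stood at 6.80 (WT), 4.71 (BM) and 4.44 FPKM (BEM), 1.44-fold (1.35 to 1.55) and 1.53-fold lower (1.43 to 1.64). Insr was thus lower and Igf1r higher in the mutants than in WT, each by less than 2-fold. The other measured relative was Kazald1, a secreted relative of the binding proteins and the 1 measured gene of the list past the threshold. It was lower by 2.98-fold in BM (2.03 to 4.46) and 3.26-fold in BEM (2.25 to 4.81). Lower genes made up 15.3% of all measured genes in each mutant. Insrr, of the same list but averaging below 1 FPKM, was also lower, with 140 reads in WT, 3 in BM and 9 in BEM.

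Igf2 shares an imprinted region with H19, a noncoding RNA expressed from the maternal chromosome while Igf2 is expressed from the paternal one. H19, which the tables give by identifier without a symbol (ENSMUSG00000000031), stood at 412 (WT), 779 (BM) and 756 FPKM (BEM), 1.89-fold (1.86 to 1.92) and 1.83-fold higher (1.80 to 1.86). Igf2 thus exceeded H19 by 5.29-fold in WT, and H19 exceeded Igf2 by 4.02-fold in BM and 3.90-fold in BEM. Igf2os, transcribed from the opposite strand of Igf2, followed Igf2 with 716 reads in WT, 50 in BM and 54 in BEM, 13.4-fold (10.02 to 18.2) and 14.6-fold lower (11.1 to 19.7). Airn, the antisense RNA that overlaps Igf2r, stood at 9.87 (WT), 5.31 (BM) and 4.98 FPKM (BEM), 1.86-fold (1.64 to 2.10) and 1.98-fold lower (1.76 to 2.24). Whether counting used strand is not stated, so reads of Igf2 and Igf2os, or of Igf2r and Airn, may not have been told apart. Of the RNA-binding proteins named for Igf2 mRNA, Igf2bp1 was 2.44-fold (2.28 to 2.61) and 2.53-fold lower (2.37 to 2.70). Igf2bp2, at 24.9, 19.6 and 18.96 FPKM, and Igf2bp3, at 5.11, 6.56 and 6.05 FPKM, stayed within 2-fold. With H19, 1 of 4 genes of the list was lower and 0 were higher in each mutant. Of all measured genes 15.3% were lower in each, and 10.5% (BM) and 10.7% (BEM) higher.

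The genes nearest to Igf1 and Igfbp4 in pattern depended on the value added to each FPKM. Likeness was the distance between the log2 values of the 3 libraries after centring, among 7522 named genes averaging 5 FPKM or more. With 0.5 added, the nearest to Igf1 were Ctsk (distance 0.0282), Ahnak (0.0426) and Tbx15 (0.0445), and the nearest to Igfbp4 were Gcnt4 (0.00844), Cpz (0.0290) and Gprc5b (0.0996). With 0.05 added, a choice made after seeing the data, 0 of the 3 remained for either gene. The nearest to Igf1 were then Figf (0.00721), Mlkl (0.0317) and Capg (0.0326), and those near Igfbp4 included Lama5 (0.0598) and Sema3e (0.0947).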

How the data were processed

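RNA from 3 cultures, 1 library each, was measured by sequencing of oligo-dT selected RNA, per the labels' protocols. The authors deposited FPKM in 3 tables, 1 per pair of libraries, per the file headers. Beside FPKM, the authors gave a log2 ratio and an FDR, a kind of adjusted p-value, for each gene. The submitters' processing notes name TopHat2, HTSeq, edgeR and the build GRCm38, without versions. Each of these files has 4 emptied lines, not analysed here.

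From these values, log2(FPKM + 0.5) was compared between libraries without further scaling, among genes averaging 1 FPKM or more. Adding 0.5 pulls ratios of low genes such as Igf1 towards 1, so folds in the text are ratios of deposited FPKM. Whole reads were recovered from gene length (GENCODE M21, GRCm38) and the library total, to within 0.0001 reads, for 12860 of 12875 measured genes, 9686 of them at the annotated length. They gave exact Clopper-Pearson 95% intervals of ratios and exact Poisson intervals of levels, which hold only counting error, because PCR copies make reads no independent molecules. The procedure was tested on simulated data. No p-value was computed, because each line has 1 library. Python 3.11.15, pandas 2.3.3 and scipy 1.17.1 were used.

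The family, the gene lists and the cell type markers were chosen with earlier results of these data known. All family genes were named, with up to 4 measured genes of each IGF list by largest ratio, plus Insr, Igfbp1, Ins2, H19 and Grb10. Some genes that the rules name, among them 1 of the receptor signalling list, are not reported here. Ins1, Irs1, Insrr, Plau, Ctsd, Adamts1 and Htra3 were added after their values were seen, as were Igf2os and Airn, which overlap family genes. Symbols came from the tables, and from GENCODE for H19. Promoter sequences are from RefSeq (GRCm38.p6) and matched all 10 genes by symbol. Other pseudocounts, filters, scalings and thresholds are given in the closing section.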

Additional observations from a re-analysis of the deposited data

How the results depend on the processing

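The family counts of 6 genes 2-fold apart in BM and in BEM became 5 and 4 with a pseudocount of 5, where Igf1 fell short in both (log2 ratios of 0.85 and 0.88) and Igfbp7 in BEM (0.997), 5 and 5 with a mean of at least 10 FPKM, which drops Igf1, and 4 and 4 at a 4-fold threshold. They stayed at 6 and 6 with a pseudocount of 0.05, no filter, upper quartile or median-of-ratios scaling, the counting interval as a further condition, and the authors' log2 ratios. For BEM against BM the family count was 0 under all 9 alternatives. Scaling would shift log2 ratios to WT by 0.08 to 0.10, and no family gene 2-fold apart changed direction under any alternative. Of the family's single ratios under the alternatives, 159 were classed as unmoved relative to counting error and 45 as moved. Some of those 45 shifted by less than the full width of their counting interval.

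Over all genes, the 3326 genes 2-fold apart in BM became 1351 with a pseudocount of 5, 1086 with a mean of at least 10 FPKM and 1246 at 4-fold. The 3339 in BEM became 1370, 1086 and 1252. The 101 between BEM and BM became 193 with a pseudocount of 0.05, 1 with 5, 369 with no filter, 3 with a mean of at least 10 FPKM, 17 at 4-fold, 12 with the counting interval and 26 with the authors' ratios. A higher mean filter tests fewer genes, no filter tests more, and the 4-fold threshold and counting interval are stricter by construction. A larger pseudocount pulls ratios towards 1 and a smaller one does so less, also by construction. For the authors' ratios the cause was not tested. No paired analysis was possible because each group has 1 library. Of the 10 family genes, Igf1 in WT rests on the fewest reads, 126. Among other named genes Wisp2 had 6 and Grb10 93 in WT, and Insrr 3, Klf15 31 and Kazald1 36 in BM.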
